A study of Mus musculus with 15 samples.

Results

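The step from 12 h to 24 h of T cell activation was read from 4 of the 15 arrays of a microRNA time course. These are the 2 arrays of mouse CD4 T cells held for 12 h, and the 2 held for 24 h, on plate-bound antibodies against CD3 and CD28. The arrays were chosen by their treatment labels, and the 24 h arrays were compared with the 12 h arrays rather than with naive cells. The cells of all groups came from spleen and lymph nodes of C57/B6 mice aged 6 to 8 weeks and were isolated with magnetic beads coated for CD4. The groups used beside the step were 2 arrays of untreated naive cells, 2 arrays each at 6 h and 65 h, 1 usable array at 42 h, 1 array of cells stimulated for 65 h and rested in IL-2 to day 7, and 2 arrays of rested cells restimulated for 18 h. Each labelling is given as 50 ng of RNA, and no label tells if paired arrays are separate animals or separate wells. All p-values then reflect array-to-array spread alone, which could be technical.

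MicroRNAs are short RNAs that an Argonaute protein carries to partly complementary messenger RNAs, whose translation and stability they lower. Anti-CD3, which binds the signalling chains of the T cell receptor, and anti-CD28, which engages a costimulatory receptor, stand in for antigen presentation and drive naive CD4 T cells out of rest into growth and later division. T cell activation is known to change the microRNA repertoire broadly, with some microRNAs induced and others, abundant in resting cells, lost. The files pair no probe ID with a microRNA name, and 0 of the 2191 IDs of the value table matched the reference tables. Probes are therefore given by ID, no sequence could be printed, and the labelled cell type could not be checked against marker microRNAs.

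The values are the authors' deposited log2 values. The arrays lay on 2 slides, and each slide held 1 array at 12 h and 1 at 24 h, so the step was first taken within each slide. Tested probes had over 50% of their spots well above background on both arrays of at least one group with 2 arrays, and numbered 693. Of these, 496 were above background on all 4 arrays of the step, and 33 on none of the 4. Across probes the 12 h arrays correlated at r = 0.971 and the 24 h arrays at r = 0.988. The unscaled signal moved in opposite directions on the slides. Over probes detected on all 14 arrays used, its median log2 level went from 6.91 at 12 h to 7.10 at 24 h on slide 1 and from 8.63 to 7.55 on slide 2. The number of value table probes above background went from 541 to 599 on slide 1 and from 693 to 546 on slide 2.

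Between 12 h and 24 h microRNA probes moved by modest amounts in both directions, and no probe passed the test. limma, with the slide as a block and all 14 arrays sharing one estimate of the spread, called 0 of 693 probes (0% of those tested) at a Benjamini-Hochberg adjusted p under 0.05. At an unadjusted p under 0.05 there were 80 probes, 11.5% of those tested, of which 42 were higher at 24 h (6.06%) and 38 lower (5.48%). The middle of the distribution stayed near 0: the mean difference of a probe, 24 h minus 12 h, had a median of -0.07 log2 and quartiles of -0.27 and 0.16. The median SE of a difference was 0.24. The count of 80 rested on single arrays: leaving out the second 24 h array gave 26, the first 24 h array 42, and the first 12 h array 47, while leaving out the second 12 h array gave 99 and either restimulated array 103.

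The largest difference belonged to UCSF033_002085, which was 5.10-fold higher at 24 h. Its log2 level was 10.51 on slide 1 and 10.58 on slide 2 at 12 h, and 12.54 and 13.25 at 24 h. Both 24 h arrays lay above both 12 h arrays, which held for 121 of the 693 tested probes (17.5%). They did so by more than the spread of either pair, but the probe was picked for its difference, so this describes it only. The difference was 2.35 log2 (SE 0.30, n = 2 arrays each; limma adjusted p = 0.0528), just short of the threshold, and came to 2.03 on slide 1 and 2.67 on slide 2. Over the alternatives its adjusted p ran from 0.0168 to 0.414, and it was 0.0259 when the first 24 h array was dropped. The processed scanner signal gave 2.38 on slide 1, where the 24 h array was the brighter, and 2.53 on slide 2, where it was the dimmer.

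UCSF033_002085 was not higher at 12 h than in naive cells on either slide. Its level was 11.06 and 11.10 on the naive arrays of slides 1 and 2, and 11.29 and 10.60 on the 6 h arrays, so its values at 12 h were the lowest on each slide. It stood at 14.75 on the 42 h array of slide 1, at 14.39 and 14.05 on the 65 h arrays, at 12.27 on the rested array and at 13.31 and 13.13 on the restimulated arrays. Every array from 24 h on therefore lay above every array up to 12 h. The probe was picked for its rise at 24 h, and the share of tested probes with such a course was not counted.

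UCSF033_001749 had the second largest difference among probes higher on both slides, 2.41-fold. Its log2 level was 10.09 and 10.22 at 12 h on slides 1 and 2, and 11.49 and 11.34 at 24 h. The groups did not overlap, which held in this direction for 121 of the 693 tested probes (17.5%). The probe was picked for its difference, so this describes it only. The difference of 1.27 log2 (SE 0.40, limma adjusted p = 0.331, n = 2 each) did not pass the test. The naive arrays of this probe, at 9.75 and 10.63, were further apart than either pair of the step. Its 6 h arrays, at 9.25 and 9.10, were the lowest of the course, and its 42 h array was the highest at 12.42.

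UCSF033_001679 was the probe furthest below, by 2.24-fold. It stood at 8.05 and 7.21 at 12 h and at 6.65 and 6.28 at 24 h on slides 1 and 2. The groups did not overlap, which held in this direction for 142 of the 693 tested probes (20.5%). The 12 h arrays were 0.84 apart, and the difference of -1.16 log2 (SE 0.44, limma adjusted p = 0.403, n = 2 each) did not pass. Dropping the first 12 h array gave -0.53, and dropping the second gave -1.79. This probe was at its highest at 12 h on slide 1: the naive arrays gave 5.77 and 6.37, the 6 h arrays 6.31 and 6.66, and the 42 h array 5.18. Its lower value at 24 h therefore lay nearer to naive cells than its value at 12 h.

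UCSF033_000800 was lower at 24 h by 1.95-fold and followed another course. Its level was 10.94 and 10.48 at 12 h and 10.16 and 9.34 at 24 h on slides 1 and 2. These did not overlap, as for 20.5% of tested probes in this direction. The difference of -0.96 log2 (SE 0.28, limma adjusted p = 0.281, n = 2 each) did not pass, and it was -0.78 on slide 1 and -1.14 on slide 2. On slide 1 the level went from 11.71 in naive cells through 11.41 at 6 h to 8.13 at 42 h and 6.59 at 65 h. On slide 2 it went from 10.94 through 10.99 to 7.00 at 65 h. The step was thus one part of a longer decline of this probe on both slides, and 24 h against naive cells gave -1.57 log2 (SE 0.28, limma adjusted p = 0.00951).

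**Figure D1:**
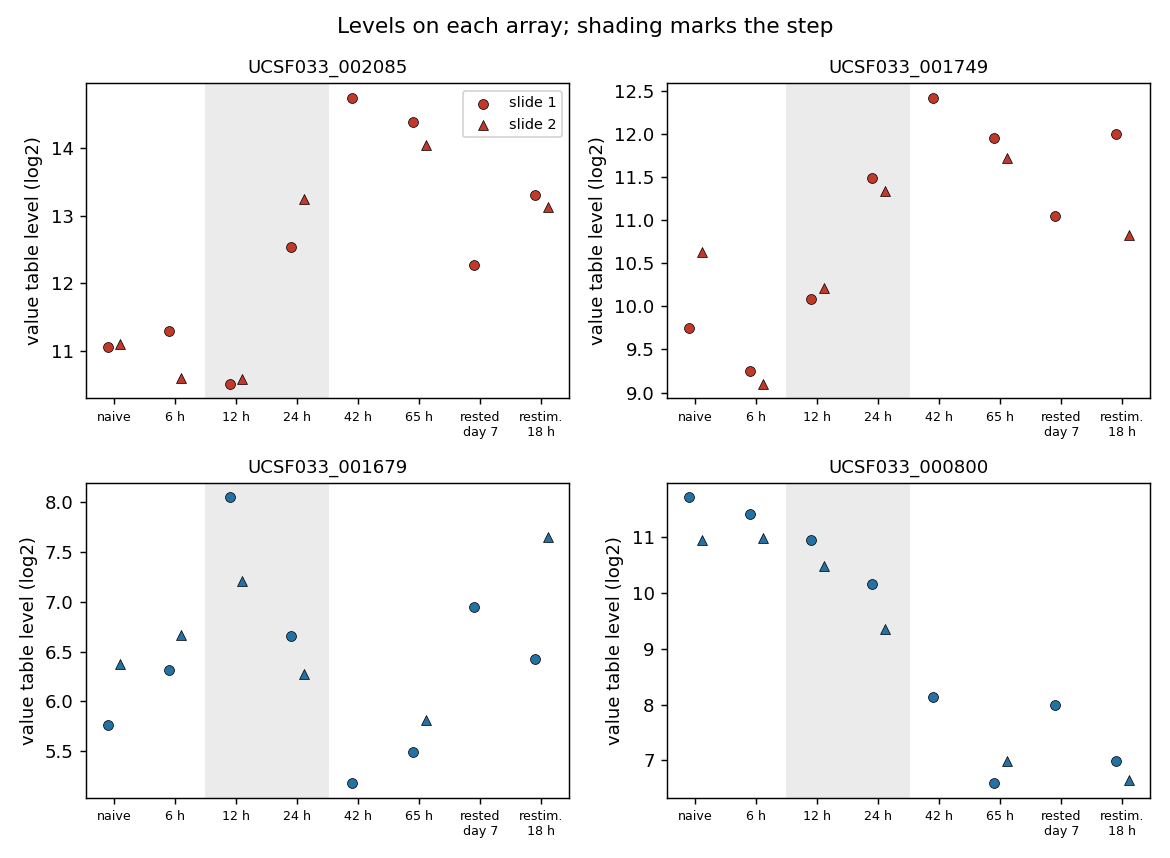
Deposited log2 level (vertical axis) for each array of each group (horizontal axis). Shown are the 2 probes furthest above and the 2 furthest below at 24 h among those with the same sign on both slides. Circles are slide 1, triangles slide 2, and the grey band marks the step. UCSF033_002085 stands between 10.51 and 11.29 up to 12 h and at 12.54 and 13.25 at 24 h, and UCSF033_000800 declines from 11.71 and 10.94 in naive cells to 6.59 and 7.00 at 65 h.

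The probes whose levels ran most like UCSF033_002085 over the 14 arrays were UCSF033_001255 (Pearson r = 0.908) and UCSF033_001045 (r = 0.907). UCSF033_001045 stood at 6.13 and 5.85 at 12 h and at 7.04 and 6.65 at 24 h on slides 1 and 2. Its groups did not overlap, as for 17.5% of tested probes in this direction. Its difference of 0.86 log2 had a small error (SE 0.13, limma adjusted p = 0.0983, n = 2 each). UCSF033_001255 was a dim probe, above background on 1 of the 2 arrays at 12 h and on both at 24 h, and stood at 4.64 and 4.997 and then at 5.27 and 5.40. Its difference was 0.51 log2 (SE 0.23, limma adjusted p = 0.451, n = 2 each). The probes most like UCSF033_001749 were UCSF033_002085 (r = 0.887) and UCSF033_001045 (r = 0.876). These correlations include the arrays of the step itself and carry no test.

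The 2 slides gave related but unequal pictures of the step. Across the 693 probes the within-slide differences, which share no array, correlated at Pearson r = 0.404 and Spearman rho = 0.398 (across probes, which are not independent replicates). In all 188 probes were higher at 24 h on both slides (27.1% of those tested), 272 were lower on both (39.2%), and 226 went opposite ways. The more frequent direction differed with the values used. The processed scanner signal was scaled to the 75th percentile over detected probes and held at a floor. On it 218 probes were higher on both slides and 154 lower. Some dim probes that were lower on both slides in the value table, such as UCSF033_000372, had a scanner difference of 0 on both. The parts of scaling and floor in these counts were not tested. Both 24 h arrays lay above both 12 h arrays for 121 probes (17.5%), and below both for 142 (20.5%). A difference of at least 1 log2 on both slides was rare: 2 probes were higher by that much (0.289%), UCSF033_002085 and UCSF033_001749, and 0 were lower (0%). By the mean of the slides 13 probes were higher by at least 1 log2 (1.88%), and 12 of them had the same sign on both slides. By the same measure 1 was lower (0.144%), UCSF033_001679.

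Large upward differences were seen more often on slide 1. There 39 probes were higher by at least 1 log2, and 36 of these were also higher on slide 2, where their median difference was 0.49 log2. On slide 2 only 12 probes were higher by that much, and 6 of them were higher on slide 1, where the median of the 12 was -0.04. For 10 of the 12 the difference on slide 1 stayed within 0.5 log2. Lower values by at least 1 log2 numbered 4 on slide 1 and 11 on slide 2.

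**Figure D2:**
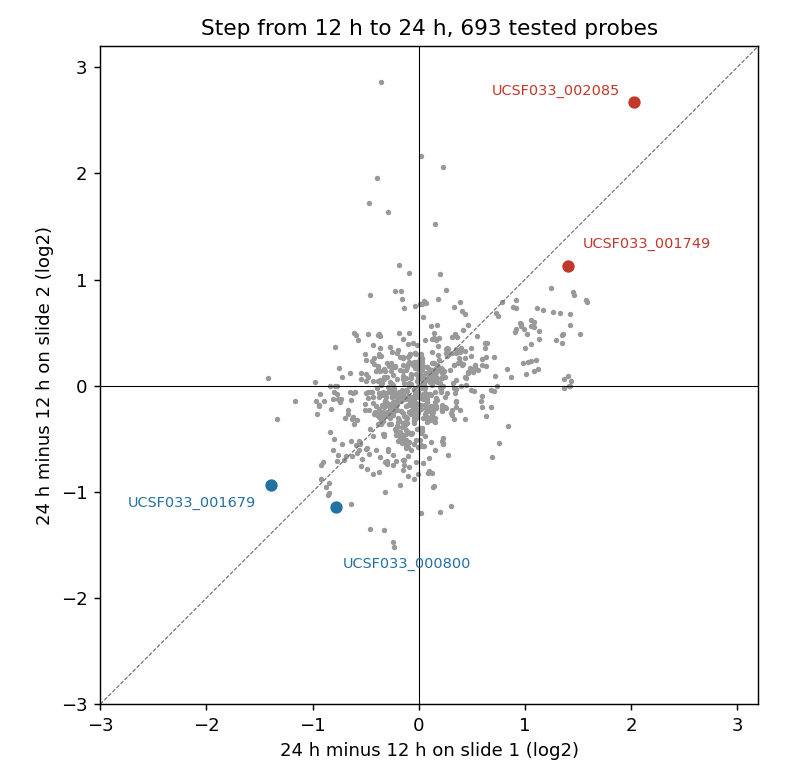
Difference of each of 693 tested probes from 12 h to 24 h on slide 1 (horizontal axis, log2) and slide 2 (vertical axis, log2). The dashed line marks equal differences. Coloured points are the probes with the largest mean differences above (red) and below (blue) among those with the same sign on both slides. The largest slide 2 difference, 2.86, belongs to an uncoloured probe. A cloud of 39 probes extends beyond 1 log2 on slide 1, mostly with smaller values on slide 2, and 2 probes lie beyond 1 on both.

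Probes picked on one slide mostly kept their direction on the other. The 50 probes furthest above on slide 1 had a median of 0.52 log2 on slide 2 (quartiles 0.23 and 0.70), and 47 of the 50 were higher there. The 50 furthest below on slide 1 had a median of -0.25 on slide 2, and 41 were lower there. Picked on slide 2 and read on slide 1, the furthest above had a median of 0.40 with 38 of 50 higher, and the furthest below had -0.24 with 39 of 50 lower. The medians over every tested probe were -0.06 on slide 2 and -0.04 on slide 1. Among all 693 tested probes, 302 were higher and 385 lower on slide 2, and 304 were higher and 388 lower on slide 1.

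Probes with neighbouring ID numbers often moved together. Of 393 pairs of tested probes whose IDs differ by 1, 298 (75.8%) had differences of the same sign. The differences of neighbours correlated at r = 0.631 on slide 1 and 0.619 on slide 2, where both are read from the same arrays. They correlated at 0.321 and 0.322 when each was read on a different slide, and the mean naive and 6 h levels of neighbours at 0.383. There were 15 runs of at least 3 consecutive IDs in which every probe was higher on both slides, with 61 probes in all and up to 10 in a run. Runs lower on both slides numbered 22, with 85 probes and up to 8 in a run. The median of a run was typically 0.60 log2 among the higher and -0.33 among the lower runs. The sources used here do not state whether neighbours probe the same microRNA, so how many separate microRNAs the 693 probes stand for is not known.

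Probes lower by 0.5 to 1 log2 had higher levels before the step than those that were higher by as much. Of the 54 probes lower by 0.5 to 1 log2, 52 were lower on both slides, all 54 were above background on all 4 arrays, and their median level over the naive and 6 h arrays was 10.25 log2. The 56 probes higher by 0.5 to 1 log2 had an earlier median of 7.24, and 50 of them were higher on both slides. The 13 higher by at least 1 log2 had an earlier median of 7.82, the 1 probe lower by at least 1 log2, UCSF033_001679, stood at 6.28, and the 569 within 0.5 log2 one of 5.66. The earlier level was taken from arrays outside the step, but probes near the bottom of the scale have less room to fall than to rise. The dimmest 231 probes began at 4.36 to 5.30 log2, and the largest fall among them was -0.40. The part of this limit in the order was not tested. With differences from the scanner signal, itself held at a floor, the order was the same and the gap smaller. There 54 probes lower by at least 0.5 log2 had an earlier median of 7.47, and 150 higher by as much had 5.94.

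Split into 3 classes of 231 probes by that earlier level, the brightest class held 57 of the 80 with an unadjusted p under 0.05, 24 higher and 33 lower. The middle class held 15 and 5, and the dimmest class 3 and 0. The slides correlated at r = 0.459 in the brightest class, 0.365 in the middle and 0.290 in the dimmest, whose differences lay between -0.40 and 0.81 log2. UCSF033_001045, of the middle class, differed by 0.92 and 0.81 log2 on slides 1 and 2 in the value table and by 1.24 and 1.42 in the processed scanner signal. Over all tested probes the value table and scanner differences correlated at r = 0.949.

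**Figure D3:**
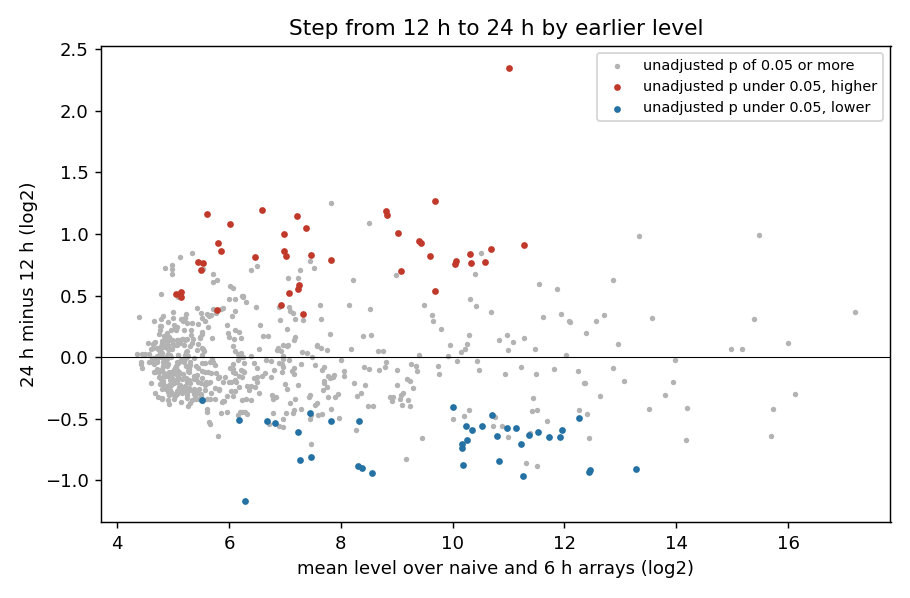
Difference from 12 h to 24 h, mean of both slides (vertical axis, log2), against the mean level over the naive and 6 h arrays (horizontal axis, log2), for 693 tested probes. Points with an unadjusted p under 0.05 are red where higher (42) and blue where lower (38); the blue points crowd at levels near 10 to 12, and the red ones spread from about 5 to 11.

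Few probes crossed the limit of detection on both slides. Of the 693 tested probes only 1 was above background on both arrays at 24 h and on neither at 12 h. Another 9 were above background on both at 12 h and on neither at 24 h. More crossed on single slides. The number of value table probes above background went from 541 to 599 on slide 1 and from 693 to 546 on slide 2. On slide 2 the 24 h array was the dimmer, and its part in the 9 was not tested.

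The step was then set against the first 12 h of activation, an interval of the same length. In the same fit 12 h against naive cells had 13 called probes (1.88% of those tested), 9 higher (1.3%) and 4 lower (0.577%). After 24 h against naive cells 154 were called (22.2%), 66 higher (9.52%) and 88 lower (12.7%). These comparisons share the naive, 12 h or 24 h arrays with the step, so their lists are not set against each other. The difference between the intervals was tested directly. limma called 0 of 693 probes (0%), with 35 (5.05%) at an unadjusted p under 0.05. Its SE had a median of 0.41 log2 over the probes.

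No difference named here passed the test, and since both intervals hold the 12 h arrays, the largest differences between them tend to have opposite signs by construction. UCSF033_002085 was 0.54 log2 lower at 12 h than in naive cells (limma adjusted p = 0.327) and then 2.35 higher at 24 h than at 12 h, a difference of 2.89 (SE 0.52, limma adjusted p = 0.146, n = 2 arrays a group). Slide 1 gave 2.58 and slide 2 gave 3.19. UCSF033_001679 was 1.56 log2 higher at 12 h than in naive cells (limma adjusted p = 0.115) and 1.16 lower at 24 h than at 12 h, a difference of -2.72 (SE 0.76, limma adjusted p = 0.517, n = 2). That difference was -1.46 without the first and -3.98 without the second 12 h array.

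UCSF033_001882, among the brightest probes, went from 14.75 and 15.23 in naive cells on slides 1 and 2 to 17.13 and 16.41 at 12 h and 16.41 and 15.86 at 24 h. Its difference between the intervals was -2.42 (SE 0.67, limma adjusted p = 0.517, n = 2). The value 16.406 recurred on several of its arrays, so its steps may reflect shared rank values, which was not tested.

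UCSF033_001566 had the second largest positive difference, 2.42 log2, but with an SE of 2.22 (limma adjusted p = 0.998, n = 2). Its arrays differed widely within a group: it stood at 8.33 and 6.28 in naive cells, at 5.92 and 5.41 at 12 h and at 5.53 and 7.37 at 24 h. The difference from 12 h to 24 h was -0.39 on slide 1 and 1.96 on slide 2. Its difference between the intervals was 0.47 when the second 24 h array was dropped and 4.37 when the first was, and 1.34 when the first 12 h array was dropped.

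Both intervals were also read on the same probes without using their arrays. The 50 probes with the largest and the 50 with the smallest difference between 65 h and 6 h were chosen. Naive, 12 h and 24 h arrays were then read for them. The step lies wholly between 6 h and 65 h, so a steady course would give it the chosen direction. The first interval lies only partly between them, so the intervals were not read on equal terms. The 50 highest had a median difference in the second interval of 0.95 log2 on slide 1 (40 of 50 higher) and 0.49 on slide 2 (38 of 50 higher). The 50 lowest had -0.48 on slide 1 (45 of 50 lower) and -0.71 on slide 2 (50 of 50 lower). Over every tested probe the medians were -0.04 and -0.06. On the scanner signal the 50 highest had 1.27 and 0.60 on slides 1 and 2, and the 50 lowest -0.34 and -0.63. Of all 693 tested probes 304 were higher and 388 lower on slide 1, and 302 were higher and 385 lower on slide 2. None of the probes in these sets passed the test from 12 h to 24 h, so the counts describe the sets only.

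The slides differed in which interval had the larger median upward difference. On slide 1 the 50 highest had a median of 0.20 log2 in the first 12 h and 0.95 in the second. On slide 2 they had 0.78 in the first and 0.49 in the second. In the first 12 h 22 of the 50 were lower on slide 1 and 18 on slide 2. Medians of the intervals need not add up to the median over 24 h. By 24 h both slides had come to a similar place, 1.11 and 0.97 log2 above naive cells. The slides thus differed at 12 h for these probes, and the 12 h arrays also differed more in unscaled signal, at 6.91 and 8.63, than the naive pair, at 8.03 and 8.69, or the 24 h pair, at 7.10 and 7.55. Its part in the difference was not tested. The 50 lowest were steadier, with -0.73 and -0.48 in the first and second interval on slide 1, -0.52 and -0.71 on slide 2, and -1.07 and -1.25 over the whole 24 h.

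**Figure D4:**
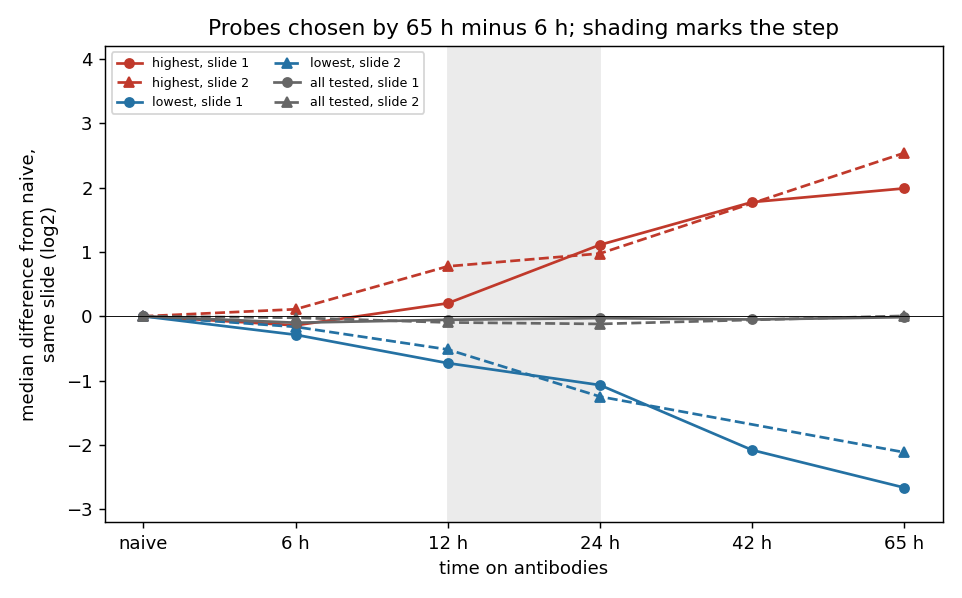
Median difference from the naive array of the same slide (vertical axis, log2) at each time on antibodies (horizontal axis, equal spacing, not to scale in hours) for the 50 probes highest (red) and 50 lowest (blue) by 65 h minus 6 h and for all 693 tested probes (grey); solid lines are slide 1 and dashed lines slide 2, which has no usable 42 h array. In the shaded step the red lines go from 0.20 to 1.11 on slide 1 and from 0.78 to 0.97 on slide 2, while the grey lines stay near 0. The lines join medians, so their rise need not equal the median difference in the step.

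After 24 h both sets went on in the same direction. Above naive cells, the 50 highest had medians of 1.77 log2 at 42 h and 1.99 at 65 h on slide 1 and 2.54 at 65 h on slide 2, and the 50 lowest had -2.08, -2.66 and -2.11. The 65 h values chose these probes and are given as a description. The 42 h array took no part in that choice, but its time lies between 6 h and 65 h.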

How the data were processed

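Total RNA was labelled with Cy3 and hybridised to one-colour Agilent arrays, per the labels' protocols. The deposited scanner files hold intensity at 15665 spots for 2500 probes. Per the file headers, Feature Extraction 10.1.1.1 removed background and spatial trend; the submitters' processing notes name version 10.6. The authors' deposited value table holds log2 values for 2191 probes; no source used here states its making. Its columns had the ranks of median spot brightness on 14 arrays (Spearman correlation 0.996 to 0.999), with medians of 4.38 to 4.41. Its scale and centring are not known exactly. Some values recurred exactly on different arrays. UCSF033_001882 stood at 16.406 at 12 h on slide 2 and at 24 h on slide 1. Likewise 13.2518 belonged to UCSF033_000403 at 12 h on slide 1 and to UCSF033_002085 at 24 h on slide 2. Differences may therefore in part be steps between shared rank values, which was not tested. For the first 42 h array the Spearman correlation with spot brightness was 0.503. Its scanner file also stood apart, with 51.3% of spots marked as outliers (0.806% to 1.92% on the others) and a median spot brightness of 466 (21 to 23). Whether column or scanner file is at fault was not tested, and the array was left out.

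Slides were read from the file headers. Spots marked as outliers were left out of detection and scanner signals. Under R 4.3.3, limma 3.58.1 fitted group and slide to 14 arrays, leaving 5 residual degrees of freedom, with moderated variances and p-values adjusted by Benjamini-Hochberg at 0.05. The number of arrays limits the precision. Named probes were the 2 largest differences in each direction with the same sign on both slides, those past the threshold first; in the comparison of intervals the sign was that of the difference between intervals. In simulations of 24 h against 12 h (693 probes, 200 changed, 10 draws), 30.8% of changes of 0.5 log2 were recovered. The share was 64.2% at 1, 94.0% at 2 and 98.0% at 3, with 3.95% of calls false. Fewer changed probes would lower the shares recovered. The simulated noise was drawn separately for each probe, whereas neighbouring IDs moved together in the data, so these shares may not hold for the data. Lists and tests were chosen with earlier results of these data known. The microRNA lists and cell markers were not tested, since probes have no names. Choosing probes on one slide or by 65 h minus 6 h, 3 classes by level and neighbouring IDs were added after the data were seen.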

Additional observations from a re-analysis of the deposited data

How the results depend on the processing

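Except where stated, the alternatives kept the slide as a fixed block. The count of probes called from 12 h to 24 h was 0 in the main fit and between 0 and 6 in the alternatives. It was 1 without the slide as a replicate block, 1 with the slide as a random block, 1 with an intensity trend in the prior, 1 each with the filter on both arrays at 12 h or 24 h and on all 4 arrays, 2 with all 15 arrays, 2 with no filter (1 higher, 1 lower), 3 on scanner signal scaled over detected probes (all higher) and 6 after normexp and quantile normalization (2 higher, 4 lower). It was 0 under the other scaling, the robust prior, centring, the 4 arrays alone and the groups up to 24 h alone, the last added after the data were seen. Leaving out 1 array gave 0 to 1. The difference between the intervals had 2 calls (both lower) on scanner signal scaled over detected probes and 0 otherwise; leaving out any 1 array gave 0. The labels give no replicate numbers, so pairing came from the slide: across probes, slide differences at 12 h correlated with those at 24 h at r = 0.522, and over all 15 pairs of groups at -0.136 to 0.798. Each slide held naive, 12 h and 24 h arrays, so changing the slide term, filter, prior or other groups could not change the named differences. Only changed signal values or scaling, or dropping one of those arrays, could do so. The named probes had 204 values under the alternatives, many of them unable to change direction. Of these 9 (all UCSF033_002085 from 12 h to 24 h) passed the threshold, 0 reversed, and the others kept direction and side.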

Other observations

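Outside the value table, 172 of the 309 further probes on the array were above background on all 4 arrays of the step. They were not tested here.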
